A study of Homo sapiens with 12 samples.

Results

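The 36 genes described here encode the stress sensors of the endoplasmic reticulum (ER), its folding machinery and the proteins that discard misfolded clients. They were chosen by gene symbol, and all 36 were found among the 23497 genes of the deposited count table and passed the filter on low counts that 17114 genes passed. They were grouped by role into 4 stress sensors, 2 transcription factors, 4 HSP70 and HSP90 chaperones, 4 co-chaperones, 5 lectin chaperones and thiol oxidoreductases, 3 other stress-induced ER proteins, 10 genes of ER-associated degradation and 4 genes of translocation and ER export. Expression was measured as polyadenylated RNA in WM1366, a human melanoma line with an NRAS mutation. Each resistant line was cultured with 1 BRAF inhibitor and 1 MEK inhibitor. These were encorafenib with binimetinib for EB-resistant cells, vemurafenib with cobimetinib for VC-resistant cells and dabrafenib with trametinib for DT-resistant cells. The sensitive parent of these 3 daughter lines was cultured with DMSO. Each of the 4 groups had 3 libraries, from 3 independent experiments, which carry the replicate numbers 2, 5 and 6. Each drug pair is represented by 1 line, and the labels do not say whether a line is 1 clone. Adjusted p-values therefore measure the spread between experiments, and resistance, drug in the medium and culture history cannot be told apart.

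The unfolded protein response is the programme by which a cell matches the folding capacity of the ER to its load of secreted and membrane proteins. Its sensors sit in the ER membrane, where the chaperone BiP, the product of HSPA5, holds them inactive until unfolded proteins draw it away. IRE1 (ERN1) then splices the XBP1 mRNA, PERK (EIF2AK3) phosphorylates eIF2alpha, and ATF6 is cut in the Golgi to release a transcription factor, after which chaperones, oxidoreductases and degradation factors are induced. Activity of this response has been described in melanoma.

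Library totals ran from 40491309 to 54495132 counts. Levels are given as CPM, counts scaled to a common library size, and as mean ± SD over 3 libraries where a single value is given. Differences are log2 fold changes with their standard errors, and a gene is said to have risen or fallen where its adjusted p was below 0.05 (edgeR quasi-likelihood F-test, Benjamini-Hochberg adjustment over 17114 genes). In brackets after a log2 fold change, EB, VC and DT name the resistant line set against sensitive. The mRNA of DUSP6, a transcript induced by ERK signalling, fell in all 3 resistant lines, with log2 fold changes of -4.24 (EB-resistant), -1.49 (VC-resistant) and -2.64 (DT-resistant). Of 8 melanocyte markers, 4 were found in the table, and TYR, S100B, SOX10 and MLANA were not analysed here. MITF stood between 40.7 and 72.9 CPM in every library, whereas PMEL, TYRP1 and DCT were below 1 CPM in every library. Fibroblast markers, 7 of 7 in the table, summed to 525 to 588 CPM in EB-resistant, 281 to 314 CPM in VC-resistant, 361 to 468 CPM in DT-resistant and 109 to 148 CPM in sensitive libraries, with THY1 the highest of them in each library and COL1A2 and DCN below 1 CPM throughout. LUM stood at 104 to 207 CPM in DT-resistant and at 0.588 to 1.33 CPM in sensitive libraries. Endothelial markers, 4 of 4 in the table, summed to at most 7.28 CPM, and leukocyte markers, 3 of 5, to at most 1.19 CPM. Keratinocyte markers, 2 of 5, summed to between 15.8 and 23.6 CPM. Nearly all of that sum was KRT10, and CDH1 stood at 0.208 CPM or less. Of the plasma cell list only SDC1 was found, 1 of 5, at 31.8 to 37.3 CPM in EB-resistant, 103 to 117 CPM in VC-resistant, 35.0 to 59.9 CPM in DT-resistant and 135 to 176 CPM in sensitive libraries. The part of these markers in the results was not tested. In bulk samples of this kind, a change in the cells that make up a culture and a change in RNA per cell cannot be told apart.

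Many of these genes share a response element in their promoter, the ER stress element (ERSE), to which cleaved ATF6 and spliced XBP1 are known to bind together with the CCAAT-binding factor NF-Y. It reads CCAAT, 9 bases of any kind and CCACG. A related element, ERSE-II, reads ATTGG, 1 base of any kind and CCACG. Both were searched on both strands in RefSeq promoter windows (GRCh38.p14), each running from 250 bases before to 50 bases after a transcript start. Windows were found for 32 of the 36 genes; PDIA3, DERL1, DERL3 and SEC24D had no entry. ERSE was found in 7 of the 32 genes and in 0.0916% of all 27305 genes with a window (0.0769% of 35116 windows). ERSE-II was found in 3 of the 32 genes and in 0.0696% of all genes with a window (0.0541% of windows). No gene of the 32 had both. The stretches are shown because the same short pattern recurs in genes of different roles. The part of these elements in the changes described below was not tested. Capitals mark the fixed letters of an element, in its own or in reverse-complement reading, and each stretch is written in the direction of its gene's transcription.
XBP1, ERSE, chr22:28800591-28800633, minus strand: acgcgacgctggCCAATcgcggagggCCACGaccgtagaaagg
HSPA5, ERSE, chr9:125241379-125241421, minus strand: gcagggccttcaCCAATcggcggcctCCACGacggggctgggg
HSP90B1, ERSE in both directions, chr12:103930204-103930351, plus strand: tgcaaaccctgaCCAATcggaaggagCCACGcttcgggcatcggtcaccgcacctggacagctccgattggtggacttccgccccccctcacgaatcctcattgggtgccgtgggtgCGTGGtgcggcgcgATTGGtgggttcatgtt
CALR, ERSE, chr19:12938372-12938414, plus strand: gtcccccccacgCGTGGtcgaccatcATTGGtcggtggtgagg
CANX, ERSE, chr5:179698766-179698808, plus strand: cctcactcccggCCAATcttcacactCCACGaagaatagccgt
CRELD2, ERSE, chr22:49918542-49918584, plus strand: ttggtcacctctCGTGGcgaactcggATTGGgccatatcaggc
SERP1, ERSE, chr3:150546698-150546740, minus strand: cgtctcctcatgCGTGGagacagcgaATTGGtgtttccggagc
HYOU1, ERSE-II at both ends, chr11:119057262-119057402, minus strand: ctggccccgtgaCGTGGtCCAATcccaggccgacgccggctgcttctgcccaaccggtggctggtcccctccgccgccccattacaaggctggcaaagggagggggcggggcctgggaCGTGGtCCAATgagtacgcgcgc
SDF2L1, ERSE-II, chr22:21642102-21642136, plus strand: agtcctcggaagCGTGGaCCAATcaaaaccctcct
HERPUD1, ERSE-II, chr16:56932013-56932047, plus strand: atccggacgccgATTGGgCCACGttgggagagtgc
HSP90B1 and HYOU1 each held 2 elements in these stretches. The element of HSPA5 began 66 bases before the start, that of XBP1 52 bases before it and that of HERPUD1 117 bases before it. The XBP1-binding element TGACGTGG was in 0.927% of all genes with a window and, of the 32 genes, in HYOU1 alone, where it overlapped the outer ERSE-II. CCAAT by itself was in 39.7% of all genes with a window and in 27 of the 32 genes. A match describes the letters of these windows and not the binding of a factor. The sites of CRELD2 and SERP1 lie in promoters shared with the neighbours ALG12 and EIF2A, whose windows hold the same site.

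The plain result was an unequal rise of the module over the resistant lines. The 36 genes together took 0.966 ± 0.0186% of all counts in EB-resistant, 1.44 ± 0.104% in VC-resistant, 1.94 ± 0.326% in DT-resistant and 0.871 ± 0.0401% in sensitive libraries (SD, n = 3 each). Against sensitive, 15 genes rose and 9 fell in EB-resistant, where 56.1% of all tested genes were called, 28.5% up and 27.6% down. In VC-resistant 25 rose and 2 fell, beside 55.0% of all genes called, 27.6% up and 27.4% down. In DT-resistant 29 rose and 1 fell, beside 59.1% of all genes called, 29.8% up and 29.3% down. The median log2 fold change of the 36 genes was 0.14 for EB-resistant, 0.49 for VC-resistant and 0.80 for DT-resistant, while that of all genes lay between -0.005 and 0.001 in each of the 6 comparisons. Changes of at least 2-fold among the called genes were 1 fall in EB-resistant, 4 rises in VC-resistant and 13 rises in DT-resistant. Of all 17114 tested genes, 2132 were called with a rise of at least 2-fold in EB-resistant and 1489 with such a fall. The same all-gene counts were 1649 and 1579 in VC-resistant and 1963 and 1810 in DT-resistant. These 3 comparisons share the sensitive libraries, so their counts are given side by side and not as independent results. The count of genes that fell in EB-resistant was 4 without EB-resistant replicate 6 and 5 without sensitive replicate 2.

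The lines were also compared directly with each other. EB-resistant had 8 genes higher and 22 lower than VC-resistant, where 58.4% of all genes were called, 29.6% higher and 28.8% lower. Against DT-resistant, EB-resistant had 1 gene higher, DERL2, and 25 lower, beside 57.2% of all genes called, 28.4% higher and 28.8% lower. VC-resistant had 0 genes higher and 16 lower than DT-resistant, beside 15.8% of all genes called, 7.08% higher and 8.71% lower. Of these 36 genes, 0 were higher in VC-resistant by an unadjusted p under 0.05 and 0 by DESeq2. The number of genes higher in EB-resistant than in VC-resistant was 5 when replicate 2 of EB-resistant, or replicate 5 or 6 of VC-resistant, was left out.

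**Figure D1:**
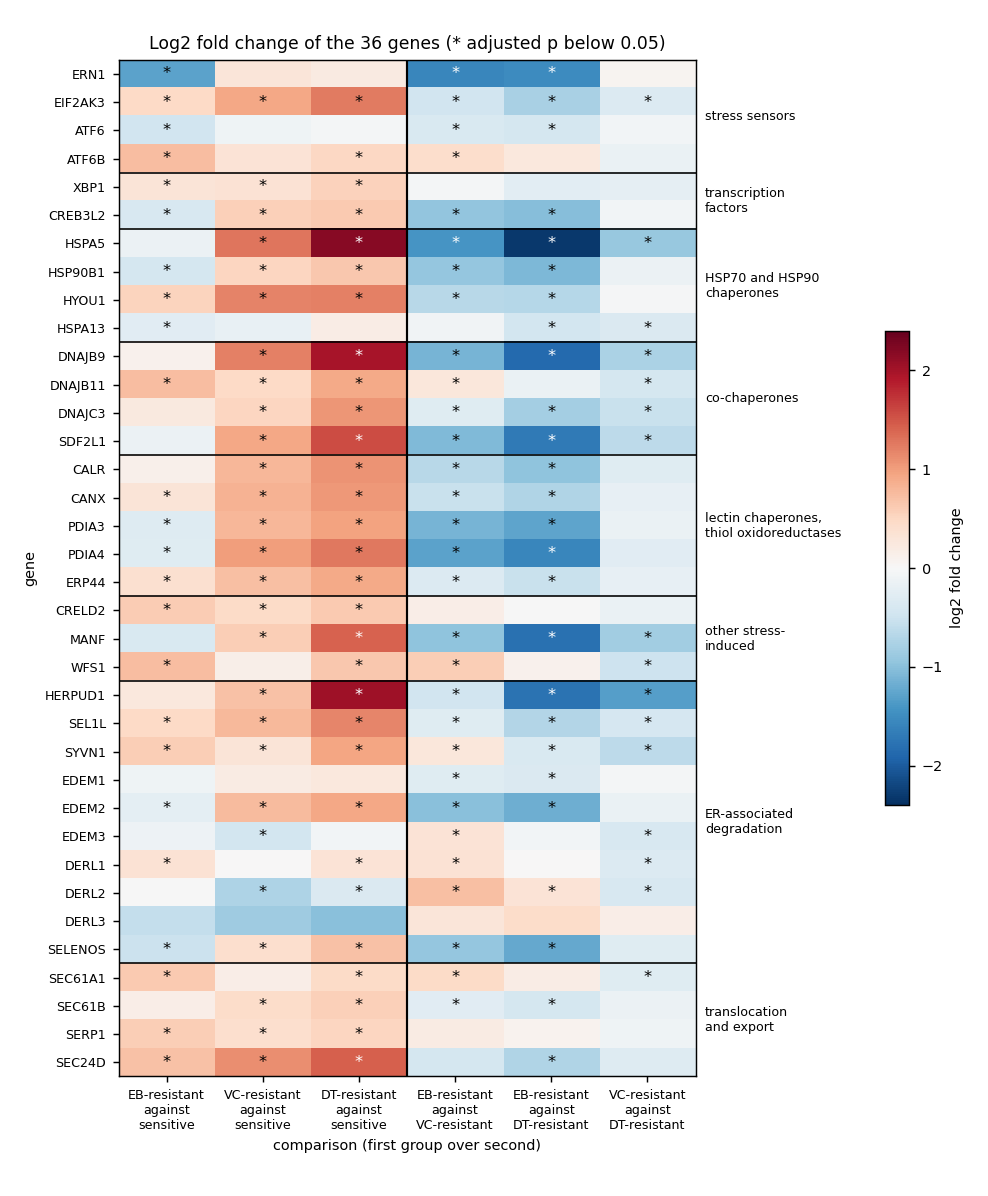
Log2 fold change of the 36 genes (rows, by role) in 6 comparisons (columns, first group over second), from blue (lower in the first group) to red (higher), with a star where the adjusted p was below 0.05. The DT-resistant column holds 29 rises and 1 fall against sensitive, whereas the EB-resistant column mixes 15 rises with 9 falls.

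Against sensitive, 11 genes rose in all 3 lines, where 12.5% of all genes did: EIF2AK3, XBP1, HYOU1, DNAJB11, CANX, ERP44, CRELD2, SEL1L, SYVN1, SERP1 and SEC24D. None of the 36 fell in all 3, where 12.1% of all genes did. Another 6 genes were called in opposite directions, lower in EB-resistant and higher in VC-resistant and DT-resistant, namely CREB3L2, HSP90B1, PDIA3, PDIA4, EDEM2 and SELENOS. Calls in 1 direction in some of the lines were made for 17 genes, and EDEM1 and DERL3 were called in none. For opposite, partial and absent calls, the share of all genes was not counted, so these counts only describe the 36 genes.

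Among the sensors, the IRE1 gene stood apart in the EB-resistant line. ERN1 (ENSG00000178607, hg38 chromosome 17, 64039080 to 64130819), whose product cuts XBP1 mRNA, had 13.6, 11.9 and 11.5 CPM in EB-resistant, 36.2, 37.6 and 36.1 CPM in VC-resistant, 36.02, 36.4 and 32.4 CPM in DT-resistant and 41.3, 28.1 and 20.7 CPM in sensitive libraries (replicates 2, 5 and 6 in this order, here and below). Every EB-resistant library lay below every other library, and the sensitive group was the most scattered. ERN1 fell by 1.28 ± 0.18 in EB-resistant (adjusted p = 5.22e-05), the one fall of at least 2-fold in the set. It was also lower in EB-resistant than in VC-resistant (log2 fold change -1.57 ± 0.19, adjusted p = 9.32e-06). Differences of VC-resistant and DT-resistant from sensitive were 0.29 ± 0.18 and 0.22 ± 0.18, with 95% intervals of -0.10 to 0.67 and -0.17 to 0.61. Without sensitive replicate 2, ERN1 was called higher in both, at 0.58 and 0.52.

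EIF2AK3, the gene of the kinase PERK, had 24.3, 24.2 and 22.6 CPM in EB-resistant, 32.9, 31.5 and 32.9 CPM in VC-resistant, 44.0, 41.5 and 36.8 CPM in DT-resistant and 15.3, 18.4 and 17.6 CPM in sensitive libraries. The 4 groups did not overlap. It rose in all 3 lines, with log2 fold changes of 0.47 ± 0.09 for EB-resistant, 0.92 ± 0.09 for VC-resistant and 1.25 ± 0.09 for DT-resistant (adjusted p from 3.83e-08 to 0.000446). VC-resistant was lower than DT-resistant by a log2 fold change of -0.33 ± 0.09 (adjusted p = 0.0205). In this unpaired fit the call was lost without VC-resistant replicate 5 or 6 or DT-resistant replicate 2 or 5 (adjusted p 0.0621 to 0.0823). In a fit of these 2 lines alone, with the replicate number as a block, its adjusted p was 0.00449.

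ATF6, the gene of the sensor cleaved in the Golgi, had 143, 145 and 137 CPM in EB-resistant, 199.6, 179.6 and 166 CPM in VC-resistant, 181, 192 and 198 CPM in DT-resistant and 234, 185 and 167 CPM in sensitive libraries. All EB-resistant libraries were below all others, and the other 3 groups overlapped. ATF6 fell by 0.47 ± 0.10 in EB-resistant (adjusted p = 0.00114). Its paralogue ATF6B, a weaker activator, had 86.6, 81.8 and 76.4 CPM in EB-resistant, 65.9, 61.1 and 56.9 CPM in VC-resistant, 73.1, 68.0 and 65.1 CPM in DT-resistant and 63.3, 43.0 and 40.0 CPM in sensitive libraries. ATF6B thus moved opposite to ATF6 in the EB-resistant line, rising by 0.74 ± 0.14 (adjusted p = 0.000325). It also rose in DT-resistant, by 0.50 ± 0.14, while the VC-resistant difference of 0.33 ± 0.14 had an adjusted p of 0.0527 and was called without VC-resistant replicate 6 or sensitive replicate 2 (0.39 and 0.56). ATF6B was higher in EB-resistant than in VC-resistant by 0.41 ± 0.14, a call lost when replicate 2 of EB-resistant, or replicate 5 or 6 of VC-resistant, was left out (adjusted p 0.0521 to 0.0725).

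Both transcription factors rose in VC-resistant and DT-resistant, each by less than 2-fold. XBP1, the target of IRE1 splicing, had 137, 117 and 114 CPM in EB-resistant, 141, 114 and 125 CPM in VC-resistant, 163, 139 and 139.7 CPM in DT-resistant and 117, 97.2 and 85.6 CPM in sensitive libraries. DT-resistant libraries all lay above the sensitive ones, and the other 2 lines overlapped them. XBP1 rose by 0.30 ± 0.12 in EB-resistant, by 0.34 ± 0.12 in VC-resistant and by 0.56 ± 0.12 in DT-resistant (adjusted p = 0.0378, 0.0209 and 0.000774). Leaving out EB-resistant replicate 2 or 5 or sensitive replicate 5 or 6 ended the EB-resistant call (adjusted p 0.0513 to 0.143), and VC-resistant replicate 2 or sensitive replicate 5 or 6 ended the VC-resistant one (0.0603 to 0.0845). Gene counts add spliced and unspliced XBP1 mRNA together, so splicing was not measured.

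CREB3L2, a transcription factor of the ATF6 type that is known to act on secretory genes, had 112, 121 and 110.5 CPM in EB-resistant, 229.6, 217 and 217 CPM in VC-resistant, 232, 247 and 217 CPM in DT-resistant and 171, 150.4 and 126 CPM in sensitive libraries. The sensitive libraries lay between EB-resistant and the other 2 lines without overlap. CREB3L2 fell by 0.38 ± 0.09 in EB-resistant and rose by 0.57 ± 0.09 in VC-resistant and 0.64 ± 0.09 in DT-resistant (adjusted p = 0.00257, 0.000112 and 3.28e-05).

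**Figure D2:**
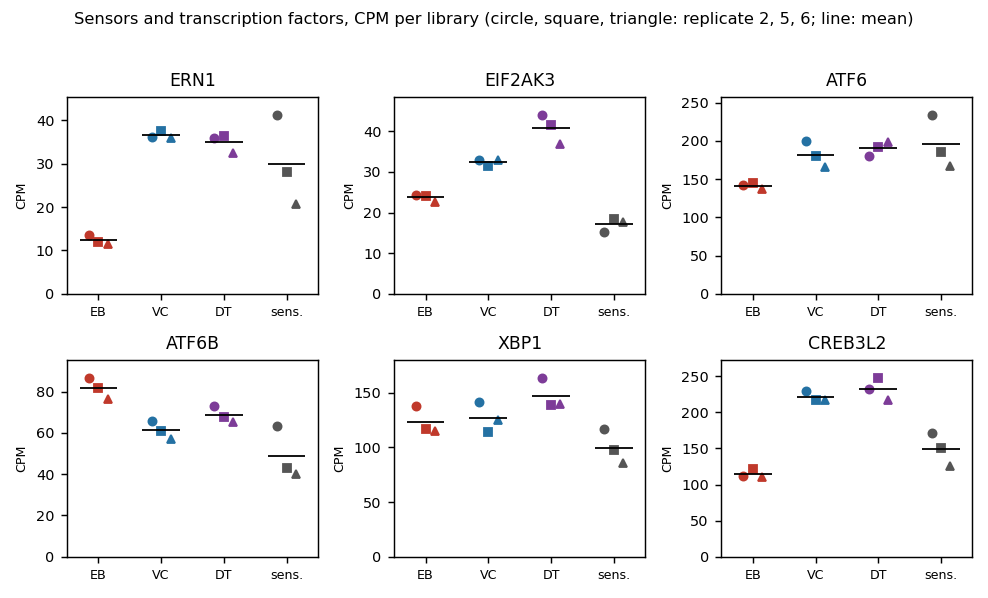
CPM of the 4 sensors, XBP1 and CREB3L2 in every library of the EB-resistant (EB), VC-resistant (VC), DT-resistant (DT) and sensitive (sens.) groups, with a line at the mean of 3 libraries and an axis from 0. ERN1, ATF6 and CREB3L2 are lowest in EB-resistant. EIF2AK3 climbs from EB-resistant over VC-resistant to DT-resistant and is lowest in sensitive, without overlap of the 4 groups.

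HSPA5 was the gene with the widest range. Its product BiP is the main HSP70 of the ER. HSPA5 (ENSG00000044574, hg38 chromosome 9, 125234853 to 125241382) had 1468, 1423 and 1338 CPM in EB-resistant, 4551, 3459 and 3261 CPM in VC-resistant, 9364, 5709 and 5986 CPM in DT-resistant and 1719, 1544 and 1379.9 CPM in sensitive libraries. EB-resistant overlapped sensitive, and VC-resistant and DT-resistant stood apart from these and from each other. HSPA5 rose 2.43-fold in VC-resistant and 4.54-fold in DT-resistant (log2 fold change 1.28 ± 0.18 and 2.18 ± 0.19, adjusted p = 0.000123 and 1.89e-06). The EB-resistant difference was -0.13 ± 0.18, with a 95% interval of -0.53 to 0.26. VC-resistant was lower than DT-resistant by a log2 fold change of -0.90 ± 0.18 (adjusted p = 0.00599), and lower in each of the 3 pairs of libraries with the same number. HSPA5 alone made up 15.3 ± 0.554% of the summed CPM of the 36 genes in EB-resistant, 25.2 ± 2.14% in VC-resistant, 34.6 ± 3.24% in DT-resistant and 17.9 ± 1.27% in sensitive libraries. Without it, the other genes summed to 7785 ± 202 CPM in EB-resistant, 11078 ± 867 CPM in VC-resistant, 13052 ± 1780.5 CPM in DT-resistant and 7107 ± 230.2 CPM in sensitive libraries. The order of the lines was thus the same with and without HSPA5.

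HYOU1 and HSP90B1 rose in VC-resistant and DT-resistant, and no difference between those lines was called. HYOU1, a nucleotide exchange factor of BiP, had 496, 513 and 487 CPM in EB-resistant, 902, 755 and 716 CPM in VC-resistant, 944, 755 and 712 CPM in DT-resistant and 379.6, 335 and 323 CPM in sensitive libraries. It rose by 0.53 ± 0.11 (EB), 1.19 ± 0.11 (VC) and 1.22 ± 0.11 (DT), and the difference of VC-resistant from DT-resistant was -0.02 ± 0.11 (95% interval -0.25 to 0.20, adjusted p = 0.925). The EB-resistant libraries lay between those of sensitive and of the other 2 lines. HSP90B1, the ER member of the HSP90 family, had 871, 896 and 849 CPM in EB-resistant, 1927, 1476 and 1589 CPM in VC-resistant, 2281, 1557 and 1652 CPM in DT-resistant and 1262, 1083 and 1169 CPM in sensitive libraries. The EB-resistant libraries were all below the sensitive ones, and those of the other 2 lines all above. HSP90B1 fell by 0.43 ± 0.13 in EB-resistant and rose by 0.51 ± 0.13 (VC) and 0.64 ± 0.13 (DT). Its fall in EB-resistant was not called without EB-resistant replicate 6 or sensitive replicate 2 (adjusted p 0.0502 to 0.0513). HSPA13, a small HSP70-like ATPase, had log2 fold changes of -0.27 ± 0.11 (EB), -0.18 ± 0.11 (VC) and 0.18 ± 0.11 (DT), and its call in EB-resistant (adjusted p = 0.0494) was lost when any 1 of 9 libraries was left out, up to an adjusted p of 0.254 without sensitive replicate 2, where the log2 fold change was -0.14. HSPA13 was called lower in VC-resistant without sensitive replicate 6 (-0.28, adjusted p = 0.0355) and higher in DT-resistant without DT-resistant replicate 2 or sensitive replicate 2 (0.29 to 0.30, adjusted p 0.0203 to 0.0208).

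**Figure D3:**
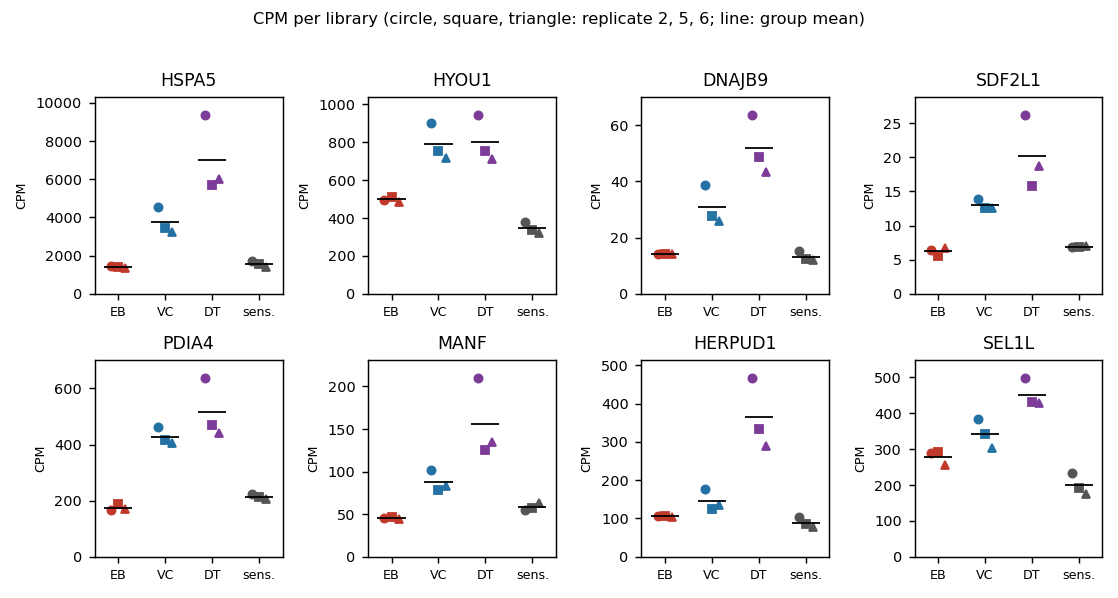
CPM of 8 chaperone and degradation genes in every library of the EB-resistant (EB), VC-resistant (VC), DT-resistant (DT) and sensitive (sens.) groups, with a line at the mean of 3 libraries and an axis from 0. HSPA5, DNAJB9, SDF2L1, MANF and HERPUD1 reach their highest values in DT-resistant, and EB-resistant lies near sensitive for HSPA5 and DNAJB9.

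All 4 co-chaperones rose in VC-resistant and in DT-resistant, where 27.6% and 29.8% of all genes rose. All 4 were lower in VC-resistant than in DT-resistant, as were 8.71% of all genes. DNAJB9 (ENSG00000128590, hg38 chromosome 7, 108569867 to 108574850), a BiP partner that also restrains IRE1, had 14.01, 14.2 and 14.1 CPM in EB-resistant, 38.8, 27.5 and 25.9 CPM in VC-resistant, 63.6, 48.7 and 43.2 CPM in DT-resistant and 15.3, 12.2 and 12.0 CPM in sensitive libraries. It rose 2.33-fold in VC-resistant and 3.93-fold in DT-resistant (log2 fold change 1.22 ± 0.17 and 1.97 ± 0.17), and the EB-resistant difference of 0.10 ± 0.17 was not called. EB-resistant overlapped sensitive, and the other 2 lines lay above them and apart from each other. SDF2L1, which keeps BiP in its cycle of client release, had 6.42, 5.58 and 6.66 CPM in EB-resistant, 13.9, 12.6 and 12.6 CPM in VC-resistant, 26.2, 15.9 and 18.7 CPM in DT-resistant and 6.79, 6.89 and 6.94 CPM in sensitive libraries. It rose by 0.92 ± 0.15 in VC-resistant and 1.56 ± 0.15 in DT-resistant, and VC-resistant was lower than DT-resistant by -0.64 ± 0.15, or -0.41 without DT-resistant replicate 2. Its EB-resistant libraries were all just below the sensitive ones (-0.14 ± 0.16, not called). DNAJC3, also known as an inhibitor of PERK, rose by 0.52 ± 0.11 (VC) and 1.06 ± 0.11 (DT). DNAJB11, a J-protein of BiP, rose in all 3 lines, and in EB-resistant (0.74 ± 0.09) by more than in VC-resistant (0.47 ± 0.09), a difference of 0.27 ± 0.09 that was lost when replicate 2 or 5 of EB-resistant, or replicate 5 or 6 of VC-resistant, was left out (adjusted p 0.0577 to 0.128).

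The calnexin cycle, in which lectins hold glycoproteins until they fold and PDIA3 joins their disulfides, and other oxidoreductases of the set rose in VC-resistant and DT-resistant, 5 of 5 genes in each. Of all genes, 27.6% rose in VC-resistant and 29.8% in DT-resistant. CALR (calreticulin) had 843, 837 and 803 CPM in EB-resistant, 1431, 1212 and 1312 CPM in VC-resistant, 2025, 1352 and 1456 CPM in DT-resistant and 689, 763 and 835 CPM in sensitive libraries. EB-resistant overlapped sensitive for CALR, and the log2 fold changes were 0.12 ± 0.13 (EB), 0.79 ± 0.13 (VC) and 1.08 ± 0.13 (DT). Its membrane-bound homologue CANX (calnexin) rose in all 3 lines, by 0.31 ± 0.07 (EB), 0.84 ± 0.07 (VC) and 1.04 ± 0.07 (DT), and ERP44, which retrieves unfinished proteins from the Golgi, by 0.39 ± 0.09 (EB), 0.71 ± 0.09 (VC) and 0.92 ± 0.09 (DT).

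Both disulfide isomerases of the set went down in EB-resistant and up in the other 2 lines. PDIA3 had 363, 361 and 332 CPM in EB-resistant, 844, 693 and 739 CPM in VC-resistant, 1019.8, 771 and 760.4 CPM in DT-resistant and 449, 419 and 442 CPM in sensitive libraries. PDIA4 had 168, 187 and 169 CPM in EB-resistant, 462, 414 and 405 CPM in VC-resistant, 637, 470.1 and 441 CPM in DT-resistant and 223, 214 and 205 CPM in sensitive libraries. For both, the EB-resistant libraries lay below the sensitive ones and those of the other 2 lines above, without overlap. PDIA3 fell by 0.31 ± 0.10 in EB-resistant and rose by 0.80 ± 0.10 (VC) and 0.96 ± 0.10 (DT). PDIA4 fell by 0.29 ± 0.11 (EB) and rose by 1.00 ± 0.11 (VC) and 1.27 ± 0.11 (DT). The falls in EB-resistant were small and near the threshold (adjusted p = 0.0183 for PDIA3 and 0.035 for PDIA4). PDIA3 lost its call without EB-resistant replicate 6 or sensitive replicate 6 (adjusted p 0.0567 to 0.092), and PDIA4 without EB-resistant replicate 2 or 6 or any 1 sensitive library (0.0553 to 0.12).

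Of the other stress-induced ER proteins, MANF, a secreted factor that binds BiP, had 45.0, 46.9 and 44.0 CPM in EB-resistant, 102, 78.8 and 83.5 CPM in VC-resistant, 209.9, 125 and 134 CPM in DT-resistant and 54.6, 57.3 and 62.8 CPM in sensitive libraries. The 4 groups did not overlap. MANF rose by 0.60 ± 0.17 (VC) and 1.42 ± 0.17 (DT), and VC-resistant was lower than DT-resistant by -0.83 ± 0.17 (adjusted p = 0.00481). The EB-resistant difference of -0.36 ± 0.17 had an adjusted p of 0.0836, and was called without DT-resistant replicate 2 or 5 (adjusted p 0.00278 and 0.0453). WFS1, the Wolfram syndrome gene of the ER membrane, followed another order, with 52.0, 59.8 and 48.9 CPM in EB-resistant, 40.1, 34.6 and 31.8 CPM in VC-resistant, 56.6, 48.5 and 44.0 CPM in DT-resistant and 34.0, 32.8 and 29.1 CPM in sensitive libraries. It rose by 0.75 ± 0.11 in EB-resistant and 0.64 ± 0.11 in DT-resistant and was higher in EB-resistant than in VC-resistant by 0.60 ± 0.11. CRELD2, a stress-induced secreted protein, rose in all 3 lines by 0.45 to 0.62.

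Genes of ER-associated degradation, which pulls misfolded proteins out to the proteasome, moved in both directions against sensitive in each line. In EB-resistant 3 of 10 rose and 2 fell, shares near those of all genes (28.5% up and 27.6% down). In VC-resistant 5 rose and 2 fell (27.6% and 27.4% of all genes), and in DT-resistant 6 rose and 1 fell (29.8% and 29.3%). HERPUD1 (ENSG00000051108, hg38 chromosome 16, 56932142 to 56944864), which assembles the ubiquitin ligase complex, had 106, 107 and 104 CPM in EB-resistant, 176, 124 and 136 CPM in VC-resistant, 467, 334 and 290.3 CPM in DT-resistant and 103, 86.0 and 77.2 CPM in sensitive libraries. Every DT-resistant library lay above every library of the other groups. HERPUD1 rose by 0.71 ± 0.18 in VC-resistant and 2.03 ± 0.18 in DT-resistant (adjusted p = 0.00511 and 2.17e-06). It was 2.51-fold lower in VC-resistant than in DT-resistant (log2 fold change -1.33 ± 0.18, adjusted p = 0.000397), the one difference of at least 2-fold between these lines among the called genes. Its difference of EB-resistant from VC-resistant, -0.45 ± 0.18, was lost when any 1 of 7 libraries was left out, and was -0.30 without VC-resistant replicate 2 (adjusted p = 0.172).

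SEL1L and SYVN1 encode the scaffold and the ligase of the HRD1 complex, and both rose in all 3 lines. SEL1L had 291, 291 and 255 CPM in EB-resistant, 383, 342 and 304 CPM in VC-resistant, 498, 431 and 428 CPM in DT-resistant and 233, 192 and 174 CPM in sensitive libraries. The 4 groups did not overlap, and the rises were 0.48 ± 0.11 (EB), 0.78 ± 0.11 (VC) and 1.18 ± 0.11 (DT). SEL1L was lower in VC-resistant than in DT-resistant by -0.40 ± 0.11. In the unpaired fit this call was lost without VC-resistant replicate 5 or 6 or DT-resistant replicate 2 (adjusted p 0.0718 to 0.113). With the replicate number as a block in the 6 libraries of these 2 lines, its adjusted p was 0.000236. SYVN1 rose by 0.58 ± 0.11 (EB), 0.32 ± 0.11 (VC) and 0.95 ± 0.11 (DT), its VC-resistant call being lost without VC-resistant replicate 2 or sensitive replicate 6 (adjusted p 0.0819 and 0.084). SYVN1 overlaps MRPL49 on the opposite strand and FAU on its own, and the strand setting of the counting is not given in the sources used here.

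The mannosidase-like genes, which mark glycoproteins for removal, did not move together. EDEM2 had 51.8, 56.6 and 51.7 CPM in EB-resistant, 117, 98.9 and 105 CPM in VC-resistant, 138, 111 and 111 CPM in DT-resistant and 63.6, 61.6 and 63.8 CPM in sensitive libraries. It fell by 0.24 ± 0.09 in EB-resistant and rose by 0.76 ± 0.09 (VC) and 0.93 ± 0.09 (DT). The fall was lost without EB-resistant replicate 2 or 6 or any 1 sensitive library (adjusted p 0.06 to 0.123). EDEM3 fell by 0.45 ± 0.07 in VC-resistant, and EDEM1 differed from sensitive by -0.09, 0.20 and 0.25, with no call, although EB-resistant was below both other lines in EDEM1 (-0.29 ± 0.11 against VC-resistant and -0.34 ± 0.11 against DT-resistant). EDEM1 was called higher in VC-resistant than in sensitive without VC-resistant replicate 2 or sensitive replicate 2 (0.31 in both, adjusted p 0.0211 to 0.026). It was called higher in DT-resistant than in sensitive when VC-resistant replicate 2 or 5, DT-resistant replicate 2 or sensitive replicate 2 was left out (0.25 to 0.36, adjusted p 0.0112 to 0.0452). The call of EDEM1 in EB-resistant against VC-resistant was lost when replicate 2 or 6 of EB-resistant, or replicate 5 or 6 of VC-resistant, was left out (adjusted p 0.0516 to 0.12), and that against DT-resistant without EB-resistant replicate 6 or DT-resistant replicate 5 (0.0569 and 0.0625).

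Derlins, thought to form the channel through which substrates leave, also diverged. DERL2 fell by 0.73 ± 0.08 in VC-resistant and 0.34 ± 0.08 in DT-resistant, the 1 fall of that line, and was higher in EB-resistant than in either. DERL1 rose by 0.35 ± 0.06 in EB-resistant and 0.33 ± 0.06 in DT-resistant. DERL3, known from secretory tissues, stood between 0.163 and 0.653 CPM and was called in no comparison, and it overlaps the far more abundant SMARCB1 on the opposite strand. SELENOS, a selenoprotein that binds the derlins and p97, had 17.4, 17.6 and 18.3 CPM in EB-resistant, 36.1, 32.7 and 33.1 CPM in VC-resistant, 47.7, 34.7 and 42.0 CPM in DT-resistant and 25.4, 24.7 and 26.5 CPM in sensitive libraries. It fell by 0.52 ± 0.10 in EB-resistant (adjusted p = 0.000469) and rose by 0.41 ± 0.10 (VC) and 0.70 ± 0.10 (DT).

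Of the 4 translocation and export genes, 3 rose in EB-resistant, as did 3 in VC-resistant and 4 in DT-resistant, and none fell. Of all genes, 28.5% rose and 27.6% fell in EB-resistant, 27.6% and 27.4% in VC-resistant, and 29.8% and 29.3% in DT-resistant. SEC61A1, the pore of the translocon, had 679, 709 and 649.7 CPM in EB-resistant, 533, 479.9 and 461 CPM in VC-resistant, 646, 605 and 557 CPM in DT-resistant and 431, 455 and 427 CPM in sensitive libraries. It rose by 0.63 ± 0.07 in EB-resistant and 0.46 ± 0.07 in DT-resistant, and the EB-resistant libraries were all above the VC-resistant ones (0.47 ± 0.07). SEC24D, a cargo-binding subunit of the COPII coat, had 70.5, 71.9 and 69.8 CPM in EB-resistant, 133, 69.2 and 82.4 CPM in VC-resistant, 154, 101 and 95.4 CPM in DT-resistant and 43.6, 45.3 and 41.6 CPM in sensitive libraries. All sensitive libraries lay below those of each resistant line, and replicate 2 was far above the other 2 libraries in VC-resistant and DT-resistant. SEC24D rose by 0.70 ± 0.24 (EB), 1.12 ± 0.24 (VC) and 1.43 ± 0.24 (DT), and its EB-resistant call was lost without any 1 EB-resistant or sensitive library (adjusted p 0.0523 to 0.0807). SERP1, which steadies the translocon under stress, rose by 0.59 ± 0.09 (EB), 0.40 ± 0.09 (VC) and 0.51 ± 0.09 (DT), and SEC61B, a small subunit, by 0.44 ± 0.07 (VC) and 0.58 ± 0.07 (DT). SERP1 and SEC61A1 overlap abundant genes on the opposite strand (EIF2A, RUVBL1 and MGLL).

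The VC-resistant and DT-resistant lines differed in a subset of these genes. Over all genes, 8.71% were lower and 7.08% higher in VC-resistant than in DT-resistant. The 16 genes lower in VC-resistant were all 4 co-chaperones, 6 of 10 degradation genes (HERPUD1, SEL1L, SYVN1, EDEM3, DERL1 and DERL2), HSPA5 and HSPA13, MANF and WFS1, EIF2AK3 and SEC61A1. None of the 5 lectin chaperones and oxidoreductases was among them. Samples with the same replicate number deviated together in these 2 lines, which pairs them. In a fit of the 6 libraries with the replicate number as a block, 23 genes were lower in VC-resistant, where 14.8% of all genes were lower. The 7 genes it added were XBP1 (adjusted p = 0.0126), CALR (0.0157), CANX (0.0352), PDIA4 (0.0152), ERP44 (0.0232), SELENOS (0.0146) and SEC24D (0.00588). In 29 of 36 genes VC-resistant was lower than DT-resistant in each of the 3 same-numbered pairs, and in 1, ERN1, higher in each. The share of all genes lower in each pair was not counted, so the 29 only describe this set. In the fit without a block, HSPA13 lost its call (adjusted p = 0.039) when any 1 of 9 libraries was left out. SEC61A1 (0.0129) lost it without VC-resistant replicate 5 or 6 or DT-resistant replicate 2, and WFS1 (0.00783) without VC-resistant replicate 6 (adjusted p 0.0518). The blocked fit of the 6 libraries called each of them, at adjusted p = 0.00235 (HSPA13), 0.00165 (SEC61A1) and 9.03e-05 (WFS1). Leaving out a library was not tried in that fit.

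**Figure D4:**
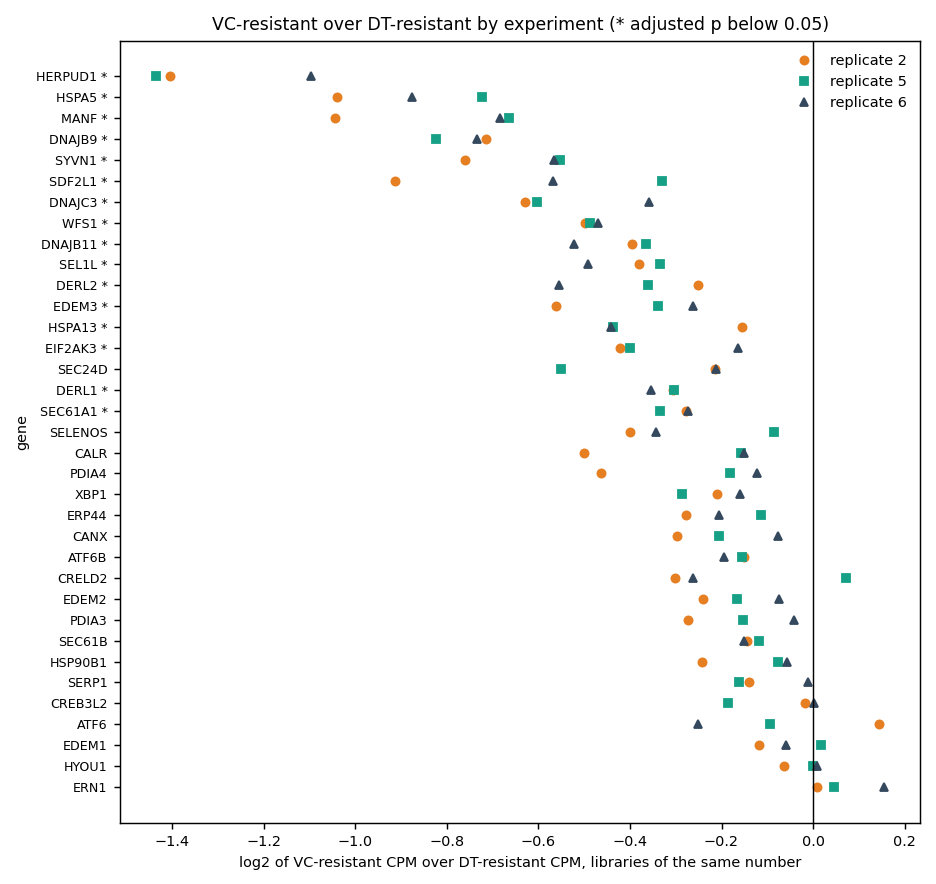
Log2 ratio of VC-resistant CPM over DT-resistant CPM for libraries with the same replicate number, for 35 genes (DERL3, below 1 CPM, is not drawn), sorted by their mean ratio, with a star where the adjusted p was below 0.05. HERPUD1 lies furthest left, and 29 genes lie left of 0 in all 3 experiments, a count not made for all genes.

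Libraries numbered replicate 2 were the highest of their group for 29 of 36 genes in VC-resistant, 28 in DT-resistant and 20 in sensitive, but 10 in EB-resistant, where replicate 2 was highest in 38.6%, 39.8%, 40.8% and 33.9% of all genes. ATF6B, XBP1, HSPA5, PDIA3 and SYVN1 were highest in replicate 2 of all 4 groups. With replicate 2 left out of every group, HSPA5 rose by 1.204 in VC-resistant and 2.01 in DT-resistant, and HERPUD1 by 0.67 and 1.94. The counts were then 17 rises and 9 falls in EB-resistant, 28 and 2 in VC-resistant, and 32 and 1 in DT-resistant. Of all genes in that fit, 30% rose and 28.8% fell in EB-resistant, 28.8% and 27.8% in VC-resistant, and 30% and 28.6% in DT-resistant.

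The promoter elements shown above were set beside these changes. All 10 genes with an ERSE or ERSE-II rose in VC-resistant and in DT-resistant, with a median log2 fold change of 0.75 and 1.06. Of the 22 genes with a window but neither element, 13 rose and 2 fell in VC-resistant (median 0.42) and 16 rose and 1 fell in DT-resistant (median 0.67). In EB-resistant, 5 of the 10 rose and 1 fell, and of the 22, 8 rose and 7 fell, shares of the 22 near those of all genes (28.5% up and 27.6% down). Over all genes, 27.6% rose and 27.4% fell in VC-resistant and 29.8% and 29.3% in DT-resistant. Among the 10, the DT-resistant rise ran from 2.18 for HSPA5 and 2.03 for HERPUD1 to 0.56 for XBP1 and 0.51 for SERP1. DNAJB9 (1.97), MANF (1.42), PDIA4 (1.27) and EIF2AK3 (1.25), with neither element in their windows, rose in DT-resistant by more than HYOU1 (1.22), which has 2. The RefSeq starts of their windows lay 306 bases (DNAJB9), 244 (MANF), 151 and 3332 (PDIA4) and 112 (EIF2AK3) from the nearest GENCODE start. An element outside these windows would not have been found. Another 34 genes outside the set hold an element, of which 20 were tested. In DT-resistant 11 of these rose and 5 fell, in VC-resistant 9 and 4, and in EB-resistant 10 and 5.

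**Figure D5:**
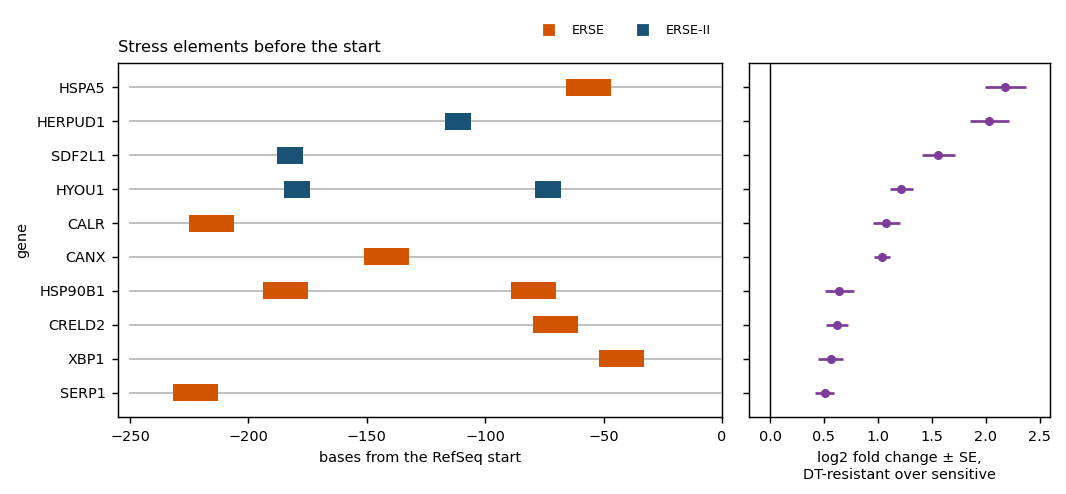
Left, ERSE and ERSE-II elements in the printed promoter stretches of 10 genes by distance from the RefSeq start (grey line, the 250 bases before it). Right, log2 fold change ± SE of DT-resistant over sensitive for the same genes; all 10 rose, by 0.51 to 2.18.

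Levels between genes were compared per length, as RPKM with the deposited gene length. That length was 19153 bases for ERN1, 20691 for EIF2AK3, 6530 for HSPA5 and 2802 for CALR. It was not checked against the length of the mRNA, and the order of genes within a group depends on it. In sensitive cells CALR (272 ± 26.0 RPKM) and HSPA5 (237 ± 25.9 RPKM) were close to each other at the top, followed by CANX (115 ± 2.44 RPKM), PDIA3 (103 ± 3.74 RPKM) and SEC61A1 (94.3 ± 3.29 RPKM). In DT-resistant cells HSPA5 (1075 ± 312 RPKM) was above CALR (575 ± 129 RPKM). In EB-resistant cells CALR (295 ± 7.66 RPKM) was above HSPA5 (216 ± 10.05 RPKM). Of the 4 sensors, ATF6 (13.7 ± 2.41 RPKM) and ATF6B (13.4 ± 3.496 RPKM) were in the middle of the set in sensitive cells, whereas ERN1 (1.57 ± 0.544 RPKM) and EIF2AK3 (0.826 ± 0.0781 RPKM) were below every other member but DERL3.

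Other genes of the secretory machinery were counted in the same way. Over all tested genes, 28.5% rose and 27.6% fell in EB-resistant, 27.6% and 27.4% in VC-resistant, and 29.8% and 29.3% in DT-resistant, and the counts of the lists below are to be read beside these shares. Of 24 other folding enzymes, 9 rose and 7 fell in EB-resistant (median -0.02), 14 and 2 in VC-resistant (0.45), and 15 and 2 in DT-resistant (0.55). SERPINH1, the collagen chaperone, rose by 2.08 ± 0.10 in EB-resistant, and FKBP14, a prolyl isomerase, by 0.69 ± 0.08 (EB), 0.99 ± 0.08 (VC) and 1.39 ± 0.08 (DT). PDIA5 rose by 1.63 ± 0.11 in VC-resistant. PDIA6, another disulfide isomerase, fell in all 3 lines, by 1.09 ± 0.10 (EB), 0.35 ± 0.10 (VC) and 0.33 ± 0.10 (DT). Of the falls of this list in VC-resistant, 1 was left without EB-resistant replicate 6, without VC-resistant replicate 5 or 6, or without any 1 sensitive library. Of 22 other degradation genes, 7 rose and 8 fell in EB-resistant (31.8% and 36.4%), 8 and 6 in VC-resistant (36.4% and 27.3%) and 9 and 5 in DT-resistant (40.9% and 22.7%), of which the EB-resistant shares are close to those of all genes. MAN1B1, an ER mannosidase, rose in all 3 lines, by 0.72 ± 0.08 (EB), 0.62 ± 0.08 (VC) and 1.00 ± 0.08 (DT), while UBE2J1, a ubiquitin-conjugating enzyme of the ER, fell in all 3, with -0.74 ± 0.06 (EB), -0.80 ± 0.06 (VC) and -0.85 ± 0.06 (DT).

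Genes of the PERK-ATF4 arm, the stress programme that PERK shares with amino acid shortage, were divided in each line. Of 13, 2 rose and 5 fell in EB-resistant, 3 and 4 in VC-resistant, and 4 and 4 in DT-resistant. The VC-resistant shares (23.1% and 30.8%) were near those of all genes (27.6% and 27.4%). So were the DT-resistant shares (30.8% and 30.8%, beside 29.8% and 29.3% of all genes). The EB-resistant rises numbered 4 without sensitive replicate 2 and 1 without sensitive replicate 6. The falls there numbered 2 without EB-resistant replicate 5, and 3 when 1 of EB-resistant replicate 6, VC-resistant replicate 2 or 5, DT-resistant replicate 5 or sensitive replicate 2 or 5 was left out. NUPR1, a stress-induced chromatin protein, had 66.4 ± 4.13 CPM in EB-resistant, 5.98 ± 0.816 CPM in VC-resistant, 6.50 ± 1.21 CPM in DT-resistant and 0.649 ± 0.457 CPM in sensitive libraries, a rise of 6.69 ± 0.30 (EB), 3.21 ± 0.30 (VC) and 3.34 ± 0.30 (DT). ASNS, asparagine synthetase, rose by 1.82 ± 0.24 in VC-resistant and by 1.82 ± 0.24 in DT-resistant. CHAC1, which degrades glutathione, fell by 1.57 ± 0.22 in VC-resistant and 0.97 ± 0.21 in DT-resistant. ATF5 fell by 1.03 ± 0.12 in VC-resistant and 1.15 ± 0.12 in DT-resistant. DDIT3 fell by 0.79 ± 0.24 in EB-resistant and rose by 1.02 ± 0.23 in DT-resistant, with no call in VC-resistant (0.14 ± 0.23).

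Among 17 other translocation genes, 5 rose and 5 fell in EB-resistant (29.4% each, near the share of all genes), with 7 and 4 in VC-resistant and 10 and 5 in DT-resistant, TRAM1, a translocon protein, being up by 1.27 ± 0.07 (EB), 0.85 ± 0.07 (VC) and 1.17 ± 0.07 (DT). Of 12 genes of the oligosaccharyltransferase, which adds glycans to new proteins, 4 rose and 4 fell in EB-resistant, 5 and 2 in VC-resistant and 6 and 1 in DT-resistant, RPN1 by 1.13 ± 0.08 (EB), 0.77 ± 0.08 (VC) and 0.88 ± 0.08 (DT). Of 15 other COPII genes, 3 rose and 5 fell in EB-resistant, 9 and 3 in VC-resistant and 10 and 3 in DT-resistant, and MCFD2, a cargo receptor subunit, fell by 1.73 ± 0.07 (EB), 1.37 ± 0.07 (VC) and 1.56 ± 0.07 (DT). Of 9 tested genes for other sensors and their processing, 3 rose and 2 fell in EB-resistant, 1 and 1 in VC-resistant and 2 and 1 in DT-resistant, with CREB3L1, a membrane-bound factor for matrix secretion, up by 3.76 ± 0.37 in EB-resistant and 2.64 ± 0.36 in DT-resistant. The 12 cytosolic heat shock genes had 5 rises and 2 falls in EB-resistant, 5 and 3 in VC-resistant and 3 and 4 in DT-resistant. HSPB1 rose by 2.16 ± 0.14 (EB), 1.26 ± 0.14 (VC) and 1.143 ± 0.14 (DT), while BAG3, a co-chaperone of HSP70, fell by 0.50 ± 0.08 (EB), 0.94 ± 0.08 (VC) and 1.12 ± 0.08 (DT). Among these last lists, leaving out 1 library moved some counts by more than 1.5 times. The 9 COPII rises in VC-resistant became 5 without VC-resistant replicate 2 and 4 without sensitive replicate 6. The 4 translocation falls in VC-resistant became 2 without sensitive replicate 5 or 6. The 5 in DT-resistant became 3 when any 1 EB-resistant library, VC-resistant replicate 2 or 6, DT-resistant replicate 5 or sensitive replicate 2 or 6 was absent. Falls of the oligosaccharyltransferase became 1 in VC-resistant without VC-resistant replicate 5 or sensitive replicate 2, and 2 in DT-resistant without DT-resistant replicate 2. Heat shock falls became 1 in EB-resistant without EB-resistant replicate 2 or 5 or sensitive replicate 5 or 6, and 1 in VC-resistant without sensitive replicate 6. Falls among the other sensors became 1 in EB-resistant without EB-resistant replicate 2 or 5 or sensitive replicate 2 or 6, and 2 in VC-resistant without sensitive replicate 2. In DT-resistant they became 2 without DT-resistant replicate 5 or 6 and 3 without sensitive replicate 2. The 1 rise among the other sensors in VC-resistant was lost without VC-resistant replicate 2 or 5 or sensitive replicate 5 or 6, and became 2 without VC-resistant replicate 6.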

How the data were processed

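Counts per gene of 12 libraries, 3 for each of 4 groups, were taken from the deposited table. Per the labels, RNA came from cells seeded 72 h earlier, and libraries were stranded and paired-end. The submitters' processing notes name bcl2fastq 2.20.0, STAR 2.7.10b, the build hg38, featureCounts 2.0.1 and DESeq2 1.38.3. No source used here gives the annotation release, the strand setting of the counting or the doses. The normalised signal the authors deposited matched, within 0.05, the counts over size factors taken as medians of ratios, and was used only for this check.

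Genes were filtered with filterByExpr, libraries scaled by TMM, and 1 mean per group fitted over the 12 libraries (edgeR 4.0.16 under R 4.3.3, robust quasi-likelihood, 8 residual degrees of freedom, no replicate block). The F-test of each of 6 comparisons was adjusted by Benjamini-Hochberg over 17114 genes. Standard errors were derived from the F statistic. Libraries of a group differed by more than sampling noise (chi-square per degree of freedom 9.70 to 57.7), so none was counted as a duplicate. Deviations from the group means correlated at 0.337, 0.151 and 0.195 between VC-resistant and DT-resistant libraries numbered 2, 5 and 6, and each other pair of groups had at least 1 correlation under 0.1. The numbers mark the independent experiments only as far as the labels number them. The alternatives were another scaling, 2 other filters, DESeq2 1.42.0, fits of 6 libraries, a replicate block and leaving out libraries. The fit was first tested on simulated data.

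The members and the pathway lists were chosen with earlier results of these data known. All 36 members are named. Values in every library are given for the 2 members per role with the largest called change against sensitive, the sensors, XBP1 and members called in opposite directions. Of the pathway lists, up to 2 genes per direction and comparison by adjusted p could be named. HSPA5 and PDIA3 have listed pseudogene copies (means of 52.4 and 197 counts) and their counts are uncertain to that extent. Plots were made with Python 3.11.15 and matplotlib 3.10.9.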

Additional observations from a re-analysis of the deposited data

Results flagged for a closer look

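Of the 36 genes, 6 were called in opposite directions against sensitive, lower in EB-resistant and higher in VC-resistant and DT-resistant. The share of all genes called so was not counted. Each gene was picked by these calls and by a called difference between the lines in the same fit. The differences below (edgeR quasi-likelihood F-test, Benjamini-Hochberg adjustment over all genes) therefore describe the picked genes and add no support to the opposite calls. The log2 fold change of EB-resistant over VC-resistant was -0.95 for CREB3L2, -0.93 for HSP90B1, -1.11 for PDIA3, -1.29 for PDIA4, -1.004 for EDEM2 and -0.93 for SELENOS, with adjusted p from 2.51e-07 to 3.67e-05. Over DT-resistant it was -1.02 for CREB3L2, -1.07 for HSP90B1, -1.27 for PDIA3, -1.56 for PDIA4, -1.17 for EDEM2 and -1.22 for SELENOS, with adjusted p from 4.67e-08 to 1.18e-05. In each case all 3 EB-resistant libraries were lower than all 6 libraries of the other 2 lines. The falls against sensitive of HSP90B1, PDIA3, PDIA4 and EDEM2 were each lost without at least 1 library, as given above, whereas those of CREB3L2 and SELENOS were kept in all 12.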

How the results depend on the processing

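Of the 216 log2 fold changes of the 36 genes, 0 called ones changed sign under any alternative. Another scaling kept 214 calls or non-calls, no filter 212, DESeq2 211 and fits of 6 libraries 208. With the replicate block, EB-resistant over DT-resistant rose in 3 genes instead of 1; with 6 libraries, with the block and 6 libraries, or with a filter of 1 CPM in 3 libraries it rose in 2. With 6 libraries, 2 genes fell in DT-resistant against sensitive instead of 1, DERL3 being added. Without replicate 2 in every group, an alternative chosen after seeing the data, EB-resistant over DT-resistant rose in 5. DESeq2 called 6 falls in EB-resistant against sensitive instead of 9. Leaving out 1 library gave 4 to 10 falls there, 5 to 9 rises of EB-resistant over VC-resistant, 1 to 2 rises of EB-resistant over DT-resistant and 11 to 16 falls of VC-resistant against DT-resistant. Genes up in all 3 lines numbered 8 to 13 by leaving out 1 library and 15 with the block. The replicate block moved no other count of the 36 genes by more than 1.5 times. Of the pathway lists against sensitive, the PERK-ATF4 arm had 4 rises with the block and 3 (no filter) or 2 (6 libraries) falls in EB-resistant, and other translocation had 3 falls without a filter, with 6 libraries or by DESeq2 in DT-resistant. Other COPII had 5 rises with the block and 6 libraries in EB-resistant, and counts of 1 or 2 in the remaining lists moved by 1 or 2. Of 8262 values for 69 genes named outside the set, 7938 kept their call and 0 changed sign. DERL3 had 194 counts over 12 libraries, which limits its precision.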
